A study of Homo sapiens with 4 samples.

Results

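The regions described here are 1078 strong H3K4me3 domains of control cells that carried no peak at all in ARID1A knockout cells. They are the control peaks with 1000 or more immunoprecipitate (IP) tags and a width under 10 kb that share no base with any knockout peak. They were chosen by the control tags, the control width and the overlap with the knockout peaks, so these 3 values describe the regions and carry no test. Of all 36677 control peaks they make up 2.94% (exact Clopper-Pearson 95% interval 2.77 to 3.12%). They are set beside the 2345 control domains of the same tag and width limits that overlapped exactly 1 of the 23588 knockout peaks.

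H3K4me3, trimethylation of lysine 4 of histone H3, is laid down mainly around the start sites of active genes by the SET1 and MLL methyltransferase complexes. At strongly used promoters the mark spreads over several neighbouring nucleosomes, so that a domain is wider than a single nucleosome. ARID1A is the DNA-binding subunit of the canonical BAF (SWI/SNF) complex, which moves nucleosomes at promoters and enhancers. It is lost in several cancers.

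The ARID1A knockout group held 1 H3K4me3 IP library with 13391724 tags and 1 input library with 17890122 tags. The control group held 1 H3K4me3 IP library with 27748061 tags and 1 input library with 14878873 tags. The series gives both groups as MDA-MB-231, a line established from a triple-negative breast cancer, with the ARID1A genotype as the difference between them. The cell line label itself ends in another number for 3 of the 4 libraries, both knockout libraries among them, and in the header of its peak list the knockout library is called K6. The labels do not say whether the knockout is 1 clone or a pool of cells. Since each genotype has a single IP library, no difference had a replicate check, no p-value is given, and genotype, culture and library cannot be told apart. The ARID1A gene, the markers of the cell line and the genes at the domains were not analysed here. All positions are in hg19. Intervals cover counting error only, and treat any duplicate tags as independent.

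Among the 4916 control domains within both limits, 1078 held no knockout peak, which is the 21.9% that the choice itself sets (20.8 to 23.1%). A single knockout peak lay in 2345 (47.7%, 46.3 to 49.1%) and 2 or more in 1493 (30.4%, 29.1 to 31.7%), with at most 5 in 1 domain. Over all control peaks, 71.6% held no knockout peak, and under the tag minimum 81.4% held none. The 1078 domains are therefore the tag-rich end of a much larger set: they are 4.11% of the 26250 control peaks that met no knockout peak. A further 118 control domains with enough tags but a width of 10 kb or more also held none, 11.8% (9.89 to 14.0%) of the 998 domains of that width.

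The share of domains without a knockout peak was lower where the control mark was stronger. At 1000 to under 1250 control tags it was 27.3% (25.3 to 29.4%), and at 1250 to under 1500 tags it was 22.8% (20.6 to 25.2%). From 1500 to under 2000 tags it was 17.4% (15.3 to 19.6%), and at 2000 or more tags it was 11.4% (8.82 to 14.4%). The share with 2 or more knockout peaks ran the other way over the same bands, at 21.2%, 29.3%, 35.9% and 52.3%. The share without any was 24.6% (20.2 to 29.4%) for domains under 5 kb and 17.0% (14.8 to 19.4%) for those of 8 kb to under 10 kb. Within each of the 4 tag bands, the intervals of narrower and wider domains overlapped. Among domains of 1000 to under 1250 tags, the share was 27.3% (24.5 to 30.2%) below 6 kb, 26.8% (23.6 to 30.1%) from 6 to under 8 kb and 30.6% (22.7 to 39.6%) from 8 kb upwards.

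**Figure D1:**
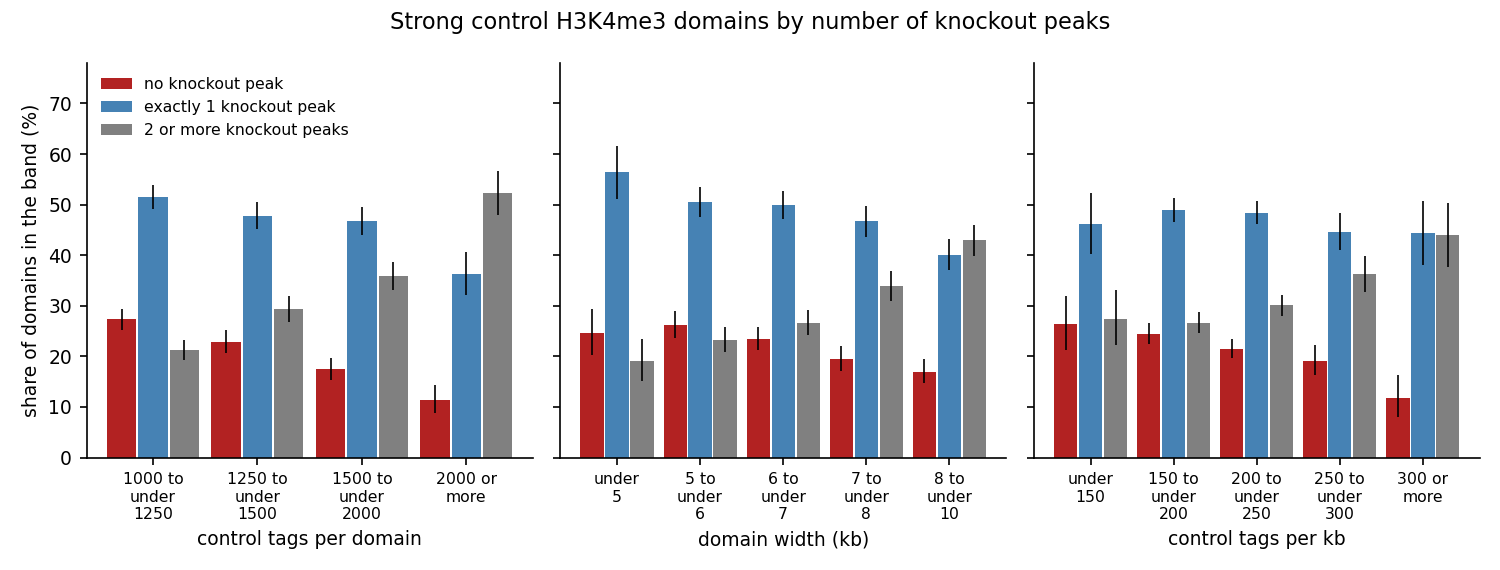
Share of strong control domains (y axis, %) with no, exactly 1, or 2 or more knockout peaks, in bands of control tags, domain width in kb and control tags per kb, with exact 95% intervals as error bars. The red bars for domains with no knockout peak go down from 27.3% to 11.4% over the 4 tag bands, while the grey bars for 2 or more go up from 21.2% to 52.3%.

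In the control library the 1078 domains differed little in tags, width and density from those that held 1 knockout peak. Their control tags ran from 1000 to 3756 with a median of 1270.5 (exact 95% interval of the median 1250 to 1291). The domains with exactly 1 knockout peak ran from 1000 to 3857 tags with a median of 1326 (1313 to 1343). The lower end of 1000 is the limit itself, and these values describe the choice. The median width was 6463.5 bp (6345 to 6568) without a knockout peak and 6587 bp (6523 to 6661) with exactly 1. The median control density was 204 tags per kb (201 to 207) without and 210 tags per kb (208 to 211) with. These offsets were small. The intervals of the medians did not overlap for tags and density, and overlapped for width. Among the alternatives run, the sign changed only under the limits given next. Among domains under 5 kb the median tags were 1118 without and 1104 with, and the densities were 245 and 242 tags per kb. With a minimum of 1500 tags the median widths were 7591 bp without and 7567 bp with.

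Within each of the 4 bands of control tags, the intervals of the median width overlapped between the classes, and so did those of the median density. At 1000 to under 1250 tags, the median width was 5919 bp (5835 to 6052) in the 506 domains without a knockout peak and 5881 bp (5804 to 5983) in the 954 domains with exactly 1. In the same band the median density was 188 tags per kb (183 to 191) without and 190 tags per kb (188 to 192) with. At 1500 to under 2000 tags, the density was 230.9 tags per kb (224 to 236) in 216 domains without and 230.8 tags per kb (228 to 236) in 580 domains with. The classes lay further apart at 2000 or more tags, with fewer domains. There the median width was 8423 bp (8081 to 8579) in 60 domains without and 8271 bp (8101 to 8476) in 191 domains with. The density in that band was 271 tags per kb (258 to 286) without and 279 tags per kb (271 to 289) with. In bands of width, the median control tags were lower without a knockout peak, except under 5000 bp (1118 without and 1104 with). At 7000 to under 8000 bp the medians were 1442 tags (1390 to 1491) without and 1543 tags (1497 to 1589) with. Only in that width band did the intervals lie apart. At 8000 to under 10000 bp the medians were 1560 tags (1486 to 1665) without and 1629 tags (1583 to 1691) with.

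For the summit position and the fold enrichment, which the choice did not use, the intervals of the medians overlapped. The summit, the point of highest control signal, lay at a median of 50.8% of the width (49.8 to 51.9%), counted from the lower coordinate, in domains without a knockout peak. It lay at 50.6% (49.9 to 51.3%) in domains with exactly 1. The authors' fold enrichment over the input, used only within the control list, had a median of 120.4 (117.95 to 124) without and 121.6 (119.8 to 123.3) with. In each class every domain had a false discovery rate of 1% or less in the authors' list. The median fold enrichment was higher without a knockout peak (131.3 against 128.75) when at least 1500 tags were asked for.

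**Figure D2:**
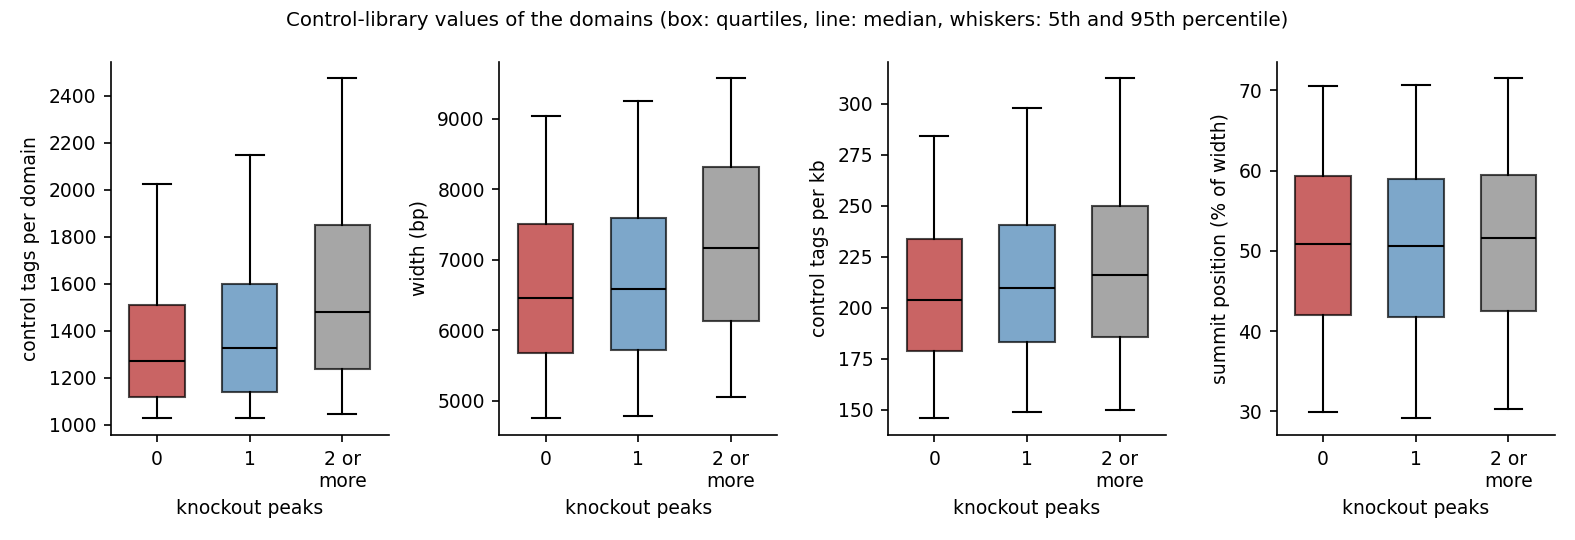
Control tags, width in bp, control tags per kb and summit position as % of the width (y axes) for domains with 0, 1 and 2 or more knockout peaks; boxes give quartiles and median, whiskers the 5th and 95th percentile over domains of the control library. The boxes for 0 and 1 knockout peak nearly coincide (median tags 1270.5 and 1326, median width 6463.5 and 6587 bp), and the box for 2 or more is higher in tags (1479) and width (7163 bp).

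How few knockout tags the 1078 domains can hold together is limited by the library totals. Only 84001 of the 13391724 knockout IP tags lay outside all knockout peaks, if each tag was counted once. Were every one of these in the 1078 domains, they would average 77.9 knockout tags per domain, against a measured mean of 1362 control tags. Scaled to the knockout total, the control mean is 657 tags. Over the 7.16 Mb that the domains cover, the knockout tags were thus at least 8.43-fold lower than the 708341 scaled control tags, and at least 17.5-fold lower than the unscaled control tags. The scaling joins unlike libraries, since 99.4% of the knockout IP tags and 62.1% of the control IP tags lay in peaks. The bound holds for the sum and not for each domain, and it restates the choice in tags. Duplicate tags are part of the knockout counts, and their share was not measured. In the domains with exactly 1 knockout peak, that peak held a mean of 798 knockout tags, against an unscaled mean of 1424 control tags in the domain. The knockout total was 0.483 of the control total, so these means are not on the same scale and do not show a loss. Scaled by that factor, as for the 1078 domains, the control mean of these domains fell below their 798 knockout tags. A knockout count of 77.9 or fewer was found in 160 of these 2345 domains (6.82%, 5.84 to 7.92%).

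The boundary between no knockout peak and 1 was a matter of a few tags in some domains. The fewest knockout tags among domains with exactly 1 peak were 12, in the domain chr9:139288805-139296953, which held 1382 control tags. Its 300 bp knockout peak ended at 139288808, only just inside the domain. The next held 13 knockout tags each, against 1098 control tags in chr1:21499102-21504575 and 1950 control tags in chr6:153298551-153308346. No knockout peak of the whole list had fewer than 12 tags. At the other end, chr17:47018754-47024244 held 5421 knockout tags against 1343 control tags, chr1:167687747-167694620 held 5311 against 1702, and chr17:43658259-43665241 held 5099 against 3202. With knockout peaks of 100 or more tags only, the domains without one made up 26.4% (25.2 to 27.6%) of the 4916. When knockout peaks of exactly 300 bp, the fragment length set in the peak caller, were left out, 2138 domains (43.5%) had none. Such peaks made up 55.0% of all knockout peaks, and were the knockout peak in 33.6% of the domains with exactly 1.

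The strongest of the domains without a knockout peak was chr4:41359671-41368289. It held 3756 control tags (exact Poisson 95% interval 3637 to 3878) over 8619 bp, and also had the highest density of all 1078, at 436 tags per kb. Its nearest knockout peak, with 616 tags, lay 48802 bp away. The domain chr5:40828663-40838081 followed with 3257 control tags (3146 to 3371) over 9419 bp, and a knockout peak of 484 tags lay 5344 bp from its edge. Next came chr14:91970390-91979394 with 3182 control tags (3072 to 3295) over 9005 bp and a fold enrichment of 215.6. The other 7 of the 10 strongest held 2568 to 2979 control tags. They were chr5:43551757-43561302, chr1:93808993-93818410, chr14:92583714-92591946, chr7:158617692-158626501, chr5:43118839-43127925, chr22:16186589-16194723 and chr10:28818636-28826716. Domains without a knockout peak took 10 of the 100 places when all 4916 were ranked by control tags (10%, 4.90 to 17.6%), against 33 places for those with exactly 1 and 57 for those with 2 or more.

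High density was also found in narrower members. The domain chr7:152158346-152163181 packed 1910 control tags into 4836 bp, or 395 tags per kb. Close to it in density were chr2:179057181-179061711 at 384 tags per kb, chr10:14878213-14883694 at 362.5 and chr2:111876004-111882042 at 362.3. The narrowest member, chr1:107598037-107601793, spanned 3757 bp with 1103 control tags. It was followed by chr9:136022602-136026492 with 1072 control tags and chr9:71392876-71396865 with 1059. The widest members sit just inside the width limit: chr5:40675638-40685616 with 2090 control tags over 9979 bp, chr10:13385100-13395073 with 2219 over 9974 bp, and chr8:22416792-22426755 with 1571 over 9964 bp. Just outside it were chr1:180118767-180128796 with 2303 control tags over 10030 bp, chr5:16459371-16469414 with 3237 over 10044 bp, and chr1:23880138-23890183 with 1482 over 10046 bp. At the tag limit, chr12:62858272-62864039, chr20:34739735-34745646 and chrX:20156005-20162310 had exactly 1000 control tags. Another 3 peaks without a knockout peak, chr1:51979811-51985540, chr10:75501475-75507293 and chr16:28853785-28859601, had 999 and were left out.

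Most of these domains lay within 100 kb of a knockout peak, though less often than domains with exactly 1 lay near a further one. The gap to the nearest knockout peak had a median of 34941 bp (30689 to 38849, quartiles 12711.5 and 77945.5 bp), and ran from 53 bp to 1518035 bp. A knockout peak lay within 1 kb of 33 domains (3.06%, 2.12 to 4.27%), within 10 kb of 228 (21.2%, 18.7 to 23.7%) and within 100 kb of 883 (81.9%, 79.5 to 84.2%). For domains with exactly 1 knockout peak, a further one outside the domain lay within 100 kb in 86.1% (84.7 to 87.5%). The nearest peak was on the lower-coordinate side for 538 domains and on the other side for 540. It lay inside another control peak for 573 of the 1078 (53.2%, 50.1 to 56.2%), against 60.3% for all knockout peaks. The 1026 separate knockout peaks that were nearest to a domain had a median of 448.5 tags, against 419 for all knockout peaks.

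The 5 domains nearest to knockout signal had a knockout peak right beside them. At chr14:70823820-70829092, with 1312 control tags, a knockout peak of 297 tags ended 53 bp before the domain. At chr9:32569403-32575592, with 1175 control tags, the gap was 92 bp and the knockout peak held 392 tags. At chr8:134305109-134311681, with 2019 control tags, the gap was 97 bp and the knockout peak held 687 tags. The gaps at chr2:99769044-99774052 and chr22:38595817-38603664 were 108 and 228 bp, with 111 and 381 knockout tags. In all 5 the knockout peak lay outside every control peak. The same was true of 29 of the 33 domains with a knockout peak within 1 kb. Those 33 peaks held 15 to 1617 knockout tags, with a median of 524. Of all knockout peaks, 60.3% lay inside a control peak. A peak right beside a domain that it must not touch can meet only a further control peak close by. The count of 29 is thus largely set by the choice.

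Knockout peaks were somewhat sparser in the surroundings of the domains without one. Within 50 kb of each edge, and outside the domain itself, a knockout peak was present for 60.7% (57.7 to 63.6%) of the domains without one and for 67.6% (65.7 to 69.5%) of the domains with exactly 1. The mean number there was 1.50 knockout peaks around domains without one and 1.76 around domains with exactly 1. Control peaks were sparser around them too, at a mean of 2.27 without and 2.46 with. Per control peak in the flanks of 50 kb there were 0.664 knockout peaks around domains without one and 0.716 around domains with exactly 1. These ratios lay closer together within 10 kb (0.571 and 0.576) and within 100 kb (0.701 and 0.727). They have no intervals. Within 10 kb the shares were 21.2% (18.7 to 23.7%) and 23.7% (22.0 to 25.5%), with overlapping intervals. The part of the control peak density in the difference at 50 kb was not tested.

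**Figure D3:**
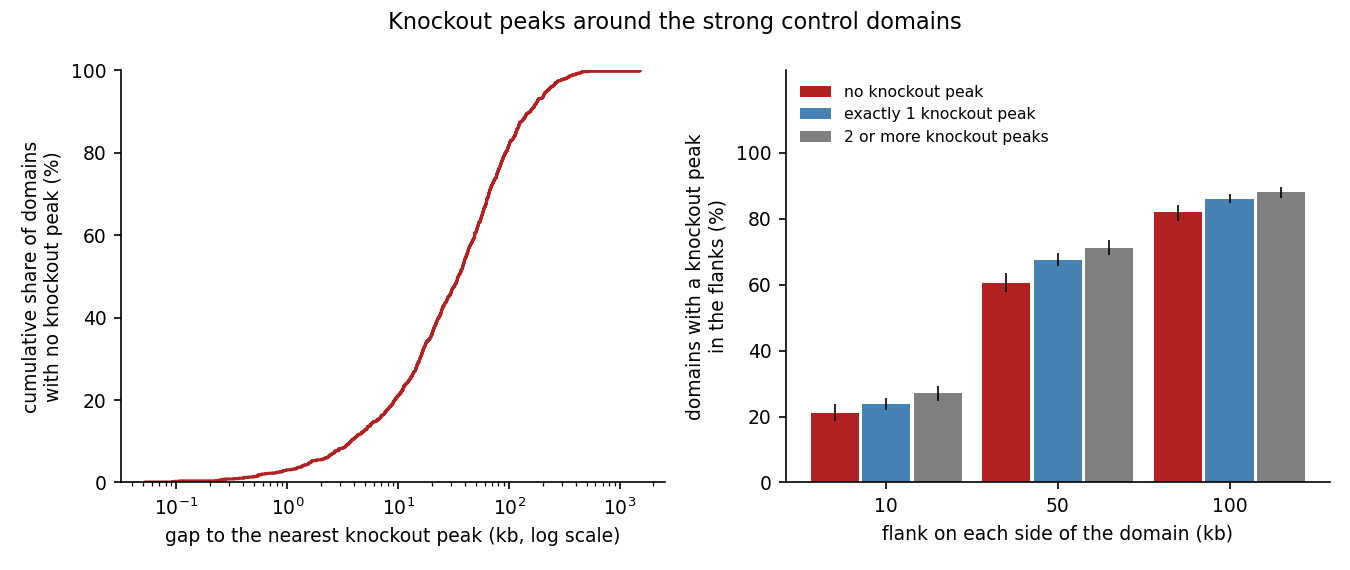
Left, cumulative share (%) of the 1078 domains by their gap to the nearest knockout peak in kb on a log axis; right, share of domains (%) with a knockout peak within 10, 50 or 100 kb of either edge, with exact 95% intervals. The left curve reaches 21.2% at 10 kb and 81.9% at 100 kb, and on the right the red bar is lower than the blue one at 50 kb (60.7% and 67.6%).

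The domains without a knockout peak were found on all 23 of chromosomes 1 to 22 and X, and were outnumbered on each by domains with exactly 1. Over the genome they were 1078 of the 3423 domains with 0 or 1 knockout peak (31.5%, 29.9 to 33.1%). The interval left out this value on 2 of the 23 chromosomes. The intervals are not corrected for the number of chromosomes, so some can leave it out by counting error alone. On chromosome 4 the share was higher, at 57 of 135 domains (42.2%, 33.8 to 51.0%). On chromosome 19, known for its high gene density, it was lower, at 42 of 232 (18.1%, 13.4 to 23.7%). Chromosome 18 had the highest value, 44.0%, but with 25 domains its interval ran from 24.4 to 65.1%. Among domains of 1000 to under 1500 control tags the share was 42.6% (33.1 to 52.5%) on chromosome 4 and 20.2% (14.5 to 27.0%) on chromosome 19, against 33.8% on all chromosomes. The interval of chromosome 4 contained that value and the interval of chromosome 19 did not. At 1500 or more control tags the share was 40.7% (22.4 to 61.2%) on chromosome 4 and 11.9% (4.91 to 22.9%) on chromosome 19, against 26.4% on all chromosomes. In that band too, the interval of chromosome 4 contained the value of all chromosomes and the interval of chromosome 19 did not. The intervals of both chromosomes overlapped each other there. Beside these shares, chromosome 4 had 0.495 knockout peaks per control peak over its whole length and chromosome 19 had 1.01. The lowest such ratio was 0.427, on chromosome 13, where the share was 31.8% (20.9 to 44.4%). Chromosome 18, with the highest share, had 0.623. Whether the share follows this ratio was not tested.

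**Figure D4:**
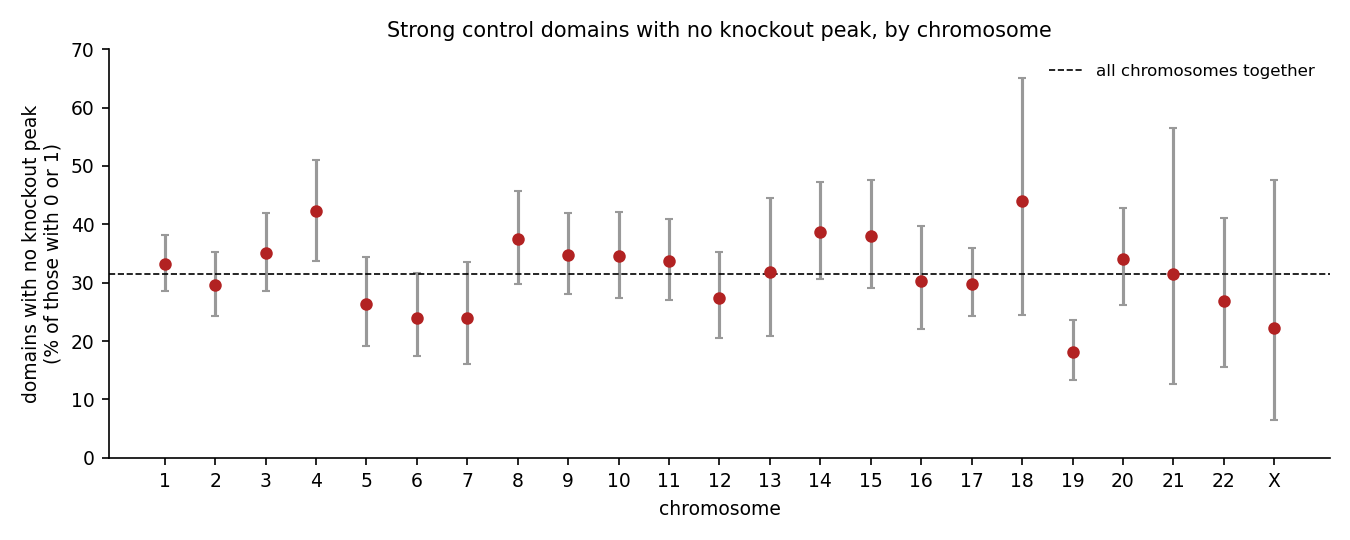
Share of domains with no knockout peak (y axis, % of the domains with 0 or 1 knockout peak) on each chromosome (x axis), with exact 95% intervals; the dashed line is the share over all chromosomes, 31.5%. Only the intervals of chromosomes 4 (42.2%) and 19 (18.1%) leave out the dashed line.

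Along the chromosomes the domains without a knockout peak lay next to each other slightly more often than they followed other domains. Taking the 4916 domains in order, the next one also lacked a knockout peak in 275 of 1071 cases after a domain without one (25.7%, 23.1 to 28.4%). After a domain with a knockout peak, the next lacked one in 799 of 3822 cases (20.9%, 19.6 to 22.2%). Of the 1078 domains, 597 stood alone between domains that held a knockout peak, and 481 lay in 206 runs of 2 or more.

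The longest run was 8 domains on chromosome 4, and it contained the strongest and the most isolated members. It began with chr4:40749735-40755156 with 1034 control tags and chr4:41155925-41165822 with 1169. The strongest of the 1078 domains, with 3756 control tags, came next among the domains within the limits. Another 3 domains lay close together after it, at chr4:41880374-41886453, chr4:41931772-41941039 and chr4:41988923-41995599, with 1082, 2307 and 1872 control tags. The last pair, chr4:44677274-44683759 and chr4:44725980-44730716, held 1555 and 1345 control tags and lay 1469329 and 1518035 bp from any knockout peak, the largest gaps of all 1078. They sit in a stretch of 3.83 Mb between neighbouring knockout peaks, from 43207945 to 47033364, which held 6 control peaks in all.

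The whole run spanned 3.98 Mb and was not empty in the knockout list. It held 12 knockout peaks with 7238 knockout tags together, and 45 control peaks, of which 5 met a knockout peak. One of these was a wider domain, chr4:41204431-41220452, with 2 knockout peaks of 1281 tags together and 4254 control tags. It lay between chr4:41155925-41165822 and the strongest of the 8 domains. Its 16022 bp exceed the width limit, and only for that reason does it not break the run. Without the 8 domains of the run, the share on chromosome 4 was 38.6% (30.1 to 47.6%), an interval that contained the 31.5% of the genome. All 8 lack a knockout peak, so leaving them out could only lower the share. It is therefore no test of the higher share on chromosome 4.

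**Figure D5:**
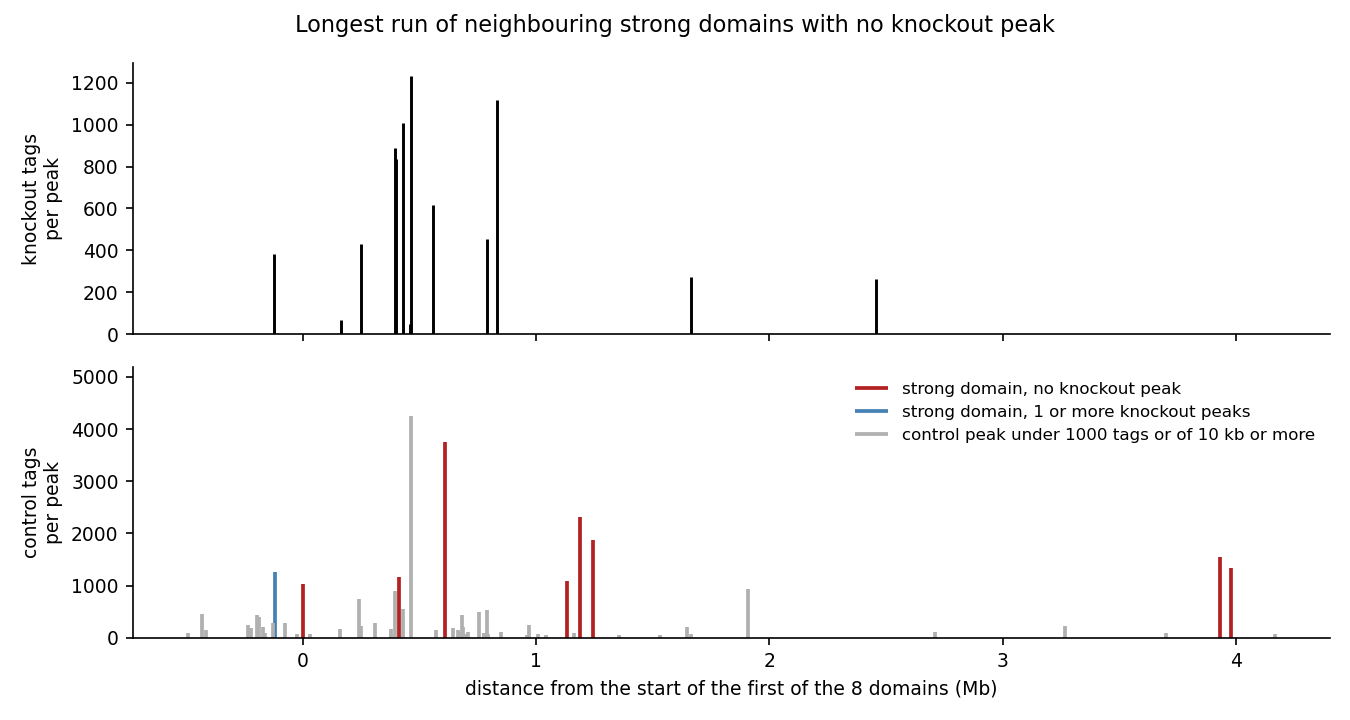
Tags per peak (y axes) for knockout peaks (top) and control peaks (bottom) along the longest run on chromosome 4, by distance in Mb from the start of its first domain, with 0.5 Mb shown on either side. The 8 red lines are strong domains with no knockout peak, up to 3756 control tags; the last pair, close to 4 Mb, is far from the 13 knockout peaks shown.

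The second longest run, on chromosome 3, held 6 domains from chr3:137903445-137909667 to chr3:143688527-143694327, with 1084 to 1756 control tags. Its span of 5.79 Mb held 24 knockout peaks and 71 control peaks, of which 12 met a knockout peak. The third, on chromosome 1 and level with others of 5, ran from chr1:101489217-101494055 to chr1:108738256-108746210 over 7.26 Mb. It held 10 knockout peaks, 3015 knockout tags and 23 control peaks, and none of those 23 met a knockout peak. Its 5 domains had 1072 to 2214 control tags.

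Other isolated members were single cases. The domains chr13:29230520-29236716 with 1089 control tags, chr6:82953939-82960174 with 1169 and chr3:110787906-110794671 with 1599 lay 517419, 457466 and 449530 bp from the nearest knockout peak. Of the 370 stretches of at least 1 Mb between neighbouring knockout peaks, 38 held a domain of this kind, 44 domains in all. The most in 1 such stretch was 3, on chromosome 6 from 82351471 to 83417640, where 14 control peaks held 4676 control tags. The median stretch around the 1074 domains that lay between 2 knockout peaks was 176906 bp (162926 to 189706). Over all stretches between neighbouring knockout peaks the median was 41882 bp. A longer stretch has more room for a domain, so these medians are not a like comparison.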

How the data were processed

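The authors deposited 1 list of peaks per genotype, each called on 1 IP library, without pooling, over its own genotype's input. Alignment to hg19 used Bowtie2 2.2.4 and peak calling MACS 1.4.3, tools and build taken from the submitters' processing notes. Per the file headers, MACS was run with a p cutoff of 0.0001 and a fragment length of 300 bp, and each larger dataset was scaled towards the smaller one. The header of the knockout list calls its library K6, a name no label carries, so it was matched only by the list's own name. For 3 libraries the cell line is labelled with a final number other than that of MDA-MB-231, the name used in the series title. The input libraries carry IgG as antibody label. None of the sources used here says whether duplicates were removed. Some knockout counts are above what 1 tag per position and strand would give, as with 5421 tags in a knockout peak of 920 bp. Duplicates were thus kept, at least in part, in the knockout counts.

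The deposited tag counts are whole IP tags per peak without normalization. The deposited score (a −log10 of the MACS p, multiplied by 10, its column name lost), fold enrichment (a ratio to the local input) and false discovery rate (a percent) were used only to describe or filter peaks within a list. Start, end, width and summit are deposited in bp.

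Peaks overlapped when they shared 1 bp, a gap is the number of bases between edges, and overlaps gave the same counts in bedtools 2.31.1. Shares have exact Clopper-Pearson intervals, tag counts exact Poisson intervals, and medians exact order-statistic intervals over regions of 1 library, which are not replicates. The tools were scipy 1.17.1, pandas 2.3.3, numpy 2.4.6 and matplotlib 3.10.9 under Python 3.11.15. The overlap step was tested on simulated data. The regions named are the strongest, densest, narrowest, widest, nearest, farthest and boundary domains, the 3 longest runs, and the domains with 1 knockout peak that held the most and the fewest knockout tags. The regions and the choice of comparisons were made with earlier results of these data known. Sequences and genes at the domains were not analysed here, for want of an hg19 genome and annotation.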

Additional observations from a re-analysis of the deposited data

How the results depend on the processing

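Of 80 alternative values 41 stayed within the interval of the reported value, or within 1.5 times for counts, and 39 moved. Domains without a knockout peak numbered 3260 (32.6%) with a minimum of 500 tags, 276 (15.6%) with 1500, 60 (11.4%) with 2000, 89 (24.6%) under 5000 bp, and 2138 (43.5%) when knockout peaks of 300 bp were left out. Their share was 20.2% with no width limit, 19.1% when a knockout peak within 5000 bp counted, 23.2% with knockout peaks at a false discovery rate of 1% or less, and 26.4% with knockout peaks of 100 or more tags. With a minimum of 1500 tags, medians without and with exactly 1 knockout peak were 1692.5 and 1752 tags, 7591 and 7567 bp, 239 and 243 tags per kb, and fold enrichments of 131.3 and 128.75. Under 5000 bp they were 1118 and 1104 tags, 4704 and 4727 bp, 245 and 242 tags per kb, summits at 49.4% and 51.5% of the width, and fold enrichments of 129.3 and 126.5. Against domains with 1 or more knockout peaks, the comparison medians were 1380 tags, 6789.5 bp and 212 tags per kb. Among control peaks of 500 or more tags, the next peak lacked a knockout peak in 33.1% of cases after a peak without one and in 29.9% after a peak with one. Among all domains within the limits, the shares were 31.5% (24.8 to 38.8%) on chromosome 4 and 11.9% (8.74 to 15.8%) on chromosome 19. The share over all chromosomes on that count was 21.9%. The limits on tags and width select other domains by construction, and the cause was not tested for the remaining shifts. Leaving out the run on chromosome 4, and leaving out chromosomes 4 and 19 for neighbours, were chosen after seeing the data. Sequence and gene alternatives were not run. No paired analysis was possible because each genotype has 1 IP library. Domains with few knockout tags could not be told from those with none at this knockout depth, where the weakest peak held 12 tags.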
